A study of Mus musculus with 6 samples.

Results

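Among the 20-base cDNA signatures measured in mouse liver and in the BLK.CL4 cell line, 143 held the hexamer AATAAA, the most common mammalian polyadenylation signal. They were chosen by sequence alone: a signature had to have a total count of at least 10 over all runs and libraries and to hold the hexamer on the read strand within bases 5 to 20. Of the 31075 signatures that reached this total, 0.460% were members, and they took 26588 counts, 0.218% of the counts of those signatures. At the edge of the rule, 17 members had totals of 10 to 12, 3 signatures with the hexamer had a total of 9, and 109 signatures with the hexamer in all lay below the minimum, with 391 counts together. Member totals had a median of 44 counts and ran from 10 to 2591, beside a median of 37 for the other signatures.

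The counts came from massively parallel signature sequencing (MPSS), in which DpnII cuts cDNA at GATC and 20 bases from its 3'-most site are cloned, amplified on microbeads and read in a flow cell. A count is therefore a number of beads that carried a signature. Per the labels there were 3 libraries from total RNA of BLK.CL4 cells, a fibroblast line, and 3 from total RNA of liver, all of the C57BL6 strain and with no treatment named. Each library was sequenced in 4 runs, 2 of a type headed T and 2 of a type headed TH. Nothing in the labels tells separate cultures or animals from repeat libraries of 1 RNA, so a p-value speaks only for the spread among these 6 libraries, and that spread may be technical. Library totals lay between 1724799 and 2440849 counts, and 3 counts amounted to between 1.23 and 1.74 CPM (counts scaled to the same total in every library). Signatures were not assigned to genes here, so neither the genes behind the members nor the tissue labels were checked against markers.

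In mammalian mRNA the hexamer AATAAA lies a short way upstream of the place where the transcript is cleaved and a poly(A) tail is added. It is bound by the cleavage and polyadenylation specificity factor, and ATTAAA and other single-base variants serve as weaker forms of the signal. A signature that holds the hexamer can come from a transcript whose last GATC lies close to its 3' end, but the same letters also occur elsewhere in a transcript. Whether the hexamer of a given member works as a signal was not determined here.

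The members below carry most of what follows, and are written 5′ to 3′ with the hexamer in capitals. The first set was counted in liver and in no BLK.CL4 library, and it shows that the hexamer of these members lies near the 3' end of the signature.
liver-A: gatctggacccaAATAAAac
liver-B: gatcctagtggaAATAAAat
liver-C: gatcacagaaacAATAAAaa
liver-D: gatccacaaaaccAATAAAa
liver-E: gatccttgcacaAATAAAta
liver-F: gatcccacacataAATAAAc
The second set was high in BLK.CL4 and low or not counted in liver, with the hexamer nearer to GATC.
BLK-A: gatccAATAAAagatgaatt
BLK-B: gatcccagcaAATAAAccag
BLK-C: gatcttctccAATAAAtggg
BLK-D: gatcaAATAAAgttagcaat
BLK-E: gatctgggccAATAAAcagt
BLK-F: gatcAATAAAccgttttgat
The third set held abundant members counted in at least 2 libraries of each group.
shared-A: gatcctcatcAATAAAtgga
shared-B: gatccaaaaagctAATAAAa
shared-C: gatctgacttcAATAAAtat
shared-D: gatcacaAATAAAtggtgct

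The share of counts in members overlapped between the cell line and liver. In BLK.CL4 the share of counts was 0.235%, 0.238% and 0.186%, with Clopper-Pearson 95% intervals of 0.228 to 0.242, 0.231 to 0.245 and 0.180 to 0.192. In liver it was 0.209%, 0.168% and 0.266%, with intervals of 0.202 to 0.216, 0.162 to 0.174 and 0.260 to 0.273. These intervals cover counting error only, since beads carry amplified molecules, and within each group the libraries differed by more than their intervals. The groups overlapped, with means of 0.220% ± 0.0294 (SD, n = 3) in BLK.CL4 and 0.214% ± 0.0495 (SD, n = 3) in liver (exact two-sided permutation test p = 1, where the smallest p that 3 against 3 libraries allow is 0.1). Taken within run types, the sign of the difference was not the same. In T runs the share was 0.289%, 0.323% and 0.218% in BLK.CL4 and 0.235%, 0.105% and 0.313% in liver (exact permutation p = 0.6), so the cell line had the higher mean. In TH runs it was 0.192%, 0.141% and 0.155% in BLK.CL4 and 0.188%, 0.219% and 0.229% in liver (exact permutation p = 0.2), so liver had the higher mean. Without the most abundant member alone, liver-F, the share was 0.220% ± 0.0294 in BLK.CL4 and 0.173% ± 0.0272 in liver (SD, n = 3 each, exact permutation p = 0.2). Liver-F had no count in BLK.CL4, so leaving it out could only lower the liver share. The next most abundant member, shared-B, had 626, 331 and 924 counts in BLK.CL4 and 0, 119 and 460 in liver. The share without shared-B was not computed.

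More different members were counted in the cell line than in liver, while single members weighed more in liver. The BLK.CL4 libraries held 71, 81 and 62 members and the liver libraries 24, 37 and 47. As a share of the signatures counted in each library, members made up 0.523%, 0.437% and 0.428% in BLK.CL4 and 0.353%, 0.340% and 0.435% in liver. The groups overlapped in this share as well, with means of 0.463% ± 0.0522 and 0.376% ± 0.0515 (SD, n = 3 each, exact permutation p = 0.2). The 3 most abundant members of a library held 70.3%, 63.9% and 51.4% of its member counts in liver, against 37.3%, 28.6% and 42.8% in BLK.CL4. Over all libraries the top 5 members held 39.5% and the top 20 held 72.9% of member counts. In all, 81 members (56.6%) were counted in BLK.CL4 only, 26 (18.2%) in liver only and 36 (25.2%) in both. Among the signatures without the hexamer those shares were 46.8%, 19.0% and 34.2%. Only 5 members were counted in all 6 libraries, and 56 (39.2%) in a single library, beside 40.4% of other signatures.

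AATAAA was found in more signatures than any of the other 5 hexamers made of 5 A and 1 T. It was in 143 signatures, AAATAA in 129, AAAAAT in 104, AAAATA in 100, TAAAAA in 94 and ATAAAA in 70. Of the 640 signature and hexamer pairs of this base content, AATAAA made up 22.3% (Clopper-Pearson 95% interval 19.2 to 25.8, with 16.7% for an even share), 1.44 times the mean of 99.4 for the other 5. The interval treats signatures as independent, although 79 members also hold another of the 6 hexamers because these overlap. By counts AATAAA came second, with 26588, behind AAATAA with 35897, of which 29.7% came from 1 signature. ATAAAA had 21013 counts, AAAAAT 18236, AAAATA 11836 and TAAAAA 11486. In the 35782 20-base stretches that start at a GATC in mouse promoters of RefSeq (GRCm38.p6), AATAAA was in 0.419%, within the range of 0.377% to 0.442% for the other 5. In these promoter stretches AATAAA was therefore not the most frequent of the 6. The stretches were distinct and came from every GATC on both strands, unlike signatures, which come from the 3'-most site of cDNA. Promoters are thus not a matched background for signatures.

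Against hexamers of every composition, AATAAA was frequent but not at the top. Among all hexamers that the 4 letters allow it ranked 659 by signatures and 1469 by counts, where the median hexamer was in 66 signatures and 16432 counts. Its reverse complement TTTATT was in 121 signatures with 13192 counts, fewer than the hexamer itself, and no member held both. Of the 18 hexamers that differ from AATAAA by 1 base, 3 were in more signatures (AAGAAA in 255, AAAAAA in 215 and AACAAA in 205), and their median was 55.5. Among the 12 known variant signals AAGAAA was the only one with more signatures. ATTAAA, the variant most used in mammals, was in 34 signatures with 11383 counts, of which 55.7% came from 1 signature. CATAAA was in 60 signatures with 81873 counts, of which 73.5% came from 1 signature. It made up 1.10%, 1.05% and 1.50% of liver counts and 0.102%, 0.127% and 0.0483% of BLK.CL4 counts, a larger difference between groups than for AATAAA itself. Any of the 12 variants was in 807 signatures, which took 1.90% ± 0.215 of counts in BLK.CL4 and 2.06% ± 0.545 in liver (SD, n = 3 each, exact permutation p = 0.8). Only 7 members also held a variant.

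The hexamer lay nearer the 3' end of the signature in most member counts. Positions are counted from 1 at the G of GATC, so that the hexamer can start at 5 to 15. From start 5 to start 15 the numbers of members were 5, 6, 16, 15, 7, 10, 16, 12, 12, 22 and 22. Starts 13 to 15 held 39.2% of members, beside 35.4% for the other 5 hexamers of the same letters, and 54.2% of member counts. Start 14 alone had 6976 counts and start 13 had 6036, the largest sums of any start.

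The position differed between the groups, with liver members further from GATC. Over the members counted in a library, the mean start was 10.5, 10.6 and 10.0 in BLK.CL4 and 12.4, 11.5 and 11.9 in liver, so every liver library lay above every BLK.CL4 library. The group means were 10.4 ± 0.312 and 11.9 ± 0.481 bases (SD, n = 3 each), a difference of 1.52 bases (exact two-sided permutation p = 0.1, the smallest possible here). Weighted by counts, the mean start was 9.89, 10.5 and 9.97 in BLK.CL4 and 13.2, 12.2 and 12.9 in liver, also without overlap (exact permutation p = 0.1). Starts 13 and 14 held 89.2%, 64.0% and 73.7% of the member counts of the liver libraries and 21.4%, 19.3% and 26.1% of those of BLK.CL4. At start 13 there were 5895 counts in liver and 141 in BLK.CL4. Most of these liver counts were from liver-A, liver-B and liver-C, with 2134, 1696 and 1481, all in TH runs. Starts 5 to 9 held 42.8%, 32.3% and 42.9% of member counts in BLK.CL4 and 0.669%, 6.45% and 7.20% in liver. Start 6 had 1096 counts in BLK.CL4, 532 of them from BLK-A, and 2 in liver. The contrast by counts thus rests on few members. In the mean over members, near copies that differ by 1 base count as separate members, and joining them was not tried. Position, group and run type moved together in these counts, as the next values show, and what each contributed was not tested.

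Which run type counted a member went with where its hexamer started. Of the 24 members that start at 5, 9 or 13, 22 (91.7%) had no count in any T run, and all had counts in TH runs. Of the 38 that start at 6, 10 or 14, 33 (86.8%) had no count in any TH run and 3 had none in T runs. The other 81 members were missing from T runs in 23.5% of cases and from TH runs in 28.4%, near the 28.0% and 23.3% over all 31075 signatures. By counts, starts 5, 9 and 13 had 507 in T runs and 8088 in TH runs, while starts 6, 10 and 14 had 8645 in T runs and 301 in TH runs. At start 13 all 12 members and all 6036 counts were outside T runs, and at start 14 the T runs held 6908 counts and the TH runs 68. Earlier results on these data had placed the bases read as 1 word of 4 at 3, 7, 11 and 15 in T runs and at 4, 8, 12 and 16 in TH runs. With the hexamer at the starts named, its last 4 bases, TAAA, fill exactly such a word. This grouping by TAAA was chosen after the counts had been seen, and its cause was not tested.

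A like division of missing signatures was seen without the whole hexamer. Of 196 other signatures with TAAA at a word position of T runs, 80.6% had no T count and 7.65% no TH count. Of 162 with TAAA at a word position of TH runs, 72.2% had no TH count and 16.7% no T count. By counts the second of these sets did not follow the members, with 32551 counts from T runs and 79392 from TH runs, of which 60168 belonged to 1 signature with no T count. Without that signature 62.9% of its counts were from T runs, against 96.6% for members that start at 6, 10 or 14. With TAAA elsewhere (577 signatures) the shares were 21.8% for T and 33.6% for TH, and in the 29997 without TAAA they were 27.8% and 22.9%. A few members were exceptions. BLK-F, which starts at 5, was counted 486 times in T runs and 881 times in TH runs. A member that starts at 10, gatcccagtAATAAActttg, was counted 42 times in T runs and 29 times in TH runs.

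The position difference between groups was smaller, and still without overlap, in members whose TAAA fills no such word. Over these 81 members the mean start was 10.8, 10.8 and 10.7 in BLK.CL4 and 11.6, 11.7 and 11.4 in liver, a difference of 0.821 bases (exact permutation p = 0.1). Their share of all counts was 0.104% ± 0.0277 in BLK.CL4 and 0.0443% ± 0.0189 in liver (SD, n = 3 each), without overlap (exact permutation p = 0.1), unlike the share of all 143 members. A lower liver share without overlap was not particular to these members (exact permutation p = 0.1 for each hexamer named next). In BLK.CL4 and liver the mean shares were 0.137% and 0.0543% for TAAAAA, 0.130% and 0.0618% for AAAATA, and 0.179% and 0.121% for AAAAAT. For ATAAAA and AAATAA the groups overlapped. The 81 members whose TAAA fills no word held 48.2%, 52.8% and 39.2% of the member counts of BLK.CL4 and 10.8%, 32.3% and 21.1% of those of liver. Members with TAAA at a word position of T runs, which were counted almost wholly in TH runs, held 20.8%, 9.17% and 25.7% in BLK.CL4 and 48.2%, 58.9% and 38.9% in liver. The groups did not overlap in either of these 2 shares of member counts (exact permutation p = 0.1 for each). Members with TAAA at a word position of TH runs held 30.99%, 38.0% and 35.1% in BLK.CL4 and 41.0%, 8.80% and 40.0% in liver, where the groups overlapped (exact permutation p = 1).

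Signature by signature, members went both ways between liver and the cell line. Of the 143 members, 44 reached 10 CPM in at least 2 libraries and were tested with edgeR's quasi-likelihood test among 9115 signatures, while 99 were too low. At a Benjamini-Hochberg adjusted p under 0.05, 9 of the 44 (20.5%) were higher in liver and 8 (18.2%) were higher in BLK.CL4, where 14.9% and 15.1% of all tested signatures were called in those directions. Scaled by library totals alone, without TMM factors, the numbers were 7 (15.9%) and 16 (36.4%), where 11.5% and 25.05% of all tested signatures were called. The median fitted log2 fold change of liver over BLK.CL4 was -2.37 for the tested members and -0.67 for all tested signatures, and -3.61 and -2.13 with library totals. The member median was not stable: it ran from -7.03 (without the third liver library) to -0.00053 (without the first BLK.CL4 library), and was -0.93 with TH runs alone and 0.90 with at least 25 CPM in 3 libraries. All 9 calls in liver and 7 of the 8 in BLK.CL4 had a count of 0 in every library of the other group, so their fitted fold changes depend on the prior count, and a lower bound on the fold against 3 counts per library is given instead. The 9 liver calls came from 7 families of like sequence and held 65.2% of all member counts in liver. The 8 BLK.CL4 calls also came from 7 families and held 15.9% of member counts in BLK.CL4. All 9 liver calls had the hexamer at start 13 or 14, as did 15 tested members in all, and none of the BLK.CL4 calls did (3 at start 6, 1 at start 9 and 4 at start 11). Of the 17 calls, 15 had counts in a single run type, 9 in TH runs and 6 in T runs. Over all 31075 signatures 28.0% had no T count and 23.3% no TH count. The shares among all called signatures, for run types and for a 0 throughout the other group, are not given here. With T runs alone 7 of the 17 calls were kept, and with TH runs alone 6. The 9 calls without T counts could not be kept in the first of these fits, nor the 6 without TH counts in the second. Without the first BLK.CL4 library 4 of 32 tested members were higher in liver (12.5%, beside 11.6% of all tested signatures). Without the second BLK.CL4 library the number was 5 of 35 (14.3% beside 13.3%). Without the third liver library it was 5 of 37 (13.5% beside 11.1%). The number higher in BLK.CL4 was 5 of 41 without the second liver library (12.2% beside 10.3%) and 4 of 37 without the third (10.8% beside 11.2%).

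Among the members higher in liver, liver-A was counted at 108, 517 and 373 CPM in the liver libraries and at 0 in all BLK.CL4 libraries. Its liver mean of 333 ± 207 CPM (SD, n = 3) was at least 226-fold higher than the BLK.CL4 floor (edgeR adjusted p = 0.00172). Liver-B was at 154, 286 and 352 CPM in liver and at 0 in BLK.CL4, at least 179-fold higher (edgeR adjusted p = 0.00095). Liver-C was at 675, 66.9 and 74.6 CPM in liver and at 0 in BLK.CL4, at least 185-fold higher (edgeR adjusted p = 0.00501). Its first library was about an order of magnitude above the others, so its mean of 272 ± 349 CPM rests on that library. All counts of liver-A, liver-B and liver-C were from TH runs.

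Liver-D and liver-E were lower in level. Liver-D was at 30.1, 42.9 and 16.8 CPM in liver, all from T runs, and at 0 in BLK.CL4, at least 20.3-fold higher (edgeR adjusted p = 0.0106). Liver-E was at 33.0, 13.5 and 6.15 CPM in liver, all from TH runs, and at 0 in BLK.CL4, at least 11.9-fold higher (edgeR adjusted p = 0.0244). Without the first BLK.CL4 library the adjusted p of liver-E was 0.0526. Liver-F had the highest liver mean of any member, yet it was at 599 and 638 CPM in 2 liver libraries and at 0 in the second. It was called as well (edgeR adjusted p = 0.0266), although its groups overlap at 0, and the call was lost without the first or without the second BLK.CL4 library. In all, 4 of the 9 liver calls had a 0 in a liver library.

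Among the members higher in BLK.CL4, none had a 0 in a library of that group, and the highest mean, of BLK-A, was 87.4 ± 108 CPM (SD, n = 3). BLK-B was at 42.3, 104 and 75.0 CPM in BLK.CL4 and at 0 in liver, at least 49.6-fold higher, or 17.4-fold with TMM factors (edgeR adjusted p = 0.0174). BLK-A was at 44.4, 210 and 7.77 CPM and at 0 in liver, at least 58.7-fold higher, or 20.9-fold with TMM factors (edgeR adjusted p = 0.0331). BLK-D had the smallest SD of BLK-A to BLK-E, at 32.3, 32.2 and 21.0 CPM (28.5 ± 6.46, SD, n = 3) against 0 in liver, at least 19.1-fold higher, or 6.66-fold with TMM factors (edgeR adjusted p = 0.0433). BLK-A and BLK-D start at 6 and were counted in T runs only.

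BLK-C and BLK-E both start at 11. BLK-C was at 35.4, 108 and 11.0 CPM and at 0 in liver, at least 34.6-fold higher, or 12.3-fold with TMM factors (edgeR adjusted p = 0.0375). BLK-E was at 43.4, 15.1 and 25.1 CPM, all from TH runs, and at 0 in liver, at least 18.7-fold higher, or 6.44-fold with TMM factors (edgeR adjusted p = 0.0451). Leaving out 1 library ended the call of BLK-A (without the third liver library), of BLK-C (without the first BLK.CL4 library) and of BLK-E (without the second or the third liver library). The call of BLK-C was also lost with TH runs alone, and those of BLK-D and BLK-E without the filter on low values. BLK-F reached 334, 45.8 and 289 CPM in BLK.CL4, beside 0, 4.49 and 0 CPM in the liver libraries. Its groups did not overlap and its means stood 149-fold apart, but it missed the threshold (log2 fold change -5.43 ± 1.81 SE, edgeR adjusted p = 0.0519). It passed with library totals (edgeR adjusted p = 0.0179), with T runs alone (0.0199) and without the second liver library (0.0157). With TH runs alone, or on leaving out any other library, the edgeR adjusted p was 0.0724 to 0.142. A signature counted in BLK.CL4 only, gatctgatgAATAAAggagg, was at 18.5, 81.9 and 0 CPM and was not called (edgeR adjusted p = 0.0980).

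The abundant members counted in both groups did not pass the test. Shared-A was the only member at 10 CPM or more in all 6 libraries, at 135, 153 and 54.9 CPM in BLK.CL4, against 151, 259 and 66.0 in liver. The groups overlapped, with means of 114 ± 52.1 and 159 ± 97.0 CPM (SD, n = 3 each) and a fitted log2 difference of 2.10 ± 0.84 SE (edgeR adjusted p = 0.0921). With library totals alone the log2 difference of shared-A was 0.48 (edgeR adjusted p = 0.664). All of its 1629 counts were from T runs. Shared-B, also counted in T runs only, was at 331, 161 and 422 CPM in BLK.CL4, against 0, 59.4 and 188 in liver. Its fitted log2 difference was -0.52 ± 1.43 SE (edgeR adjusted p = 0.825) beside a BLK.CL4 mean of 3.69 times the liver mean in CPM, since TMM factors shift fitted values toward liver.

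Shared-C, with the hexamer at start 12, was seen by both run types (552 counts by T, 686 by TH). In BLK.CL4 it reached 92.0, 294 and 8.68 CPM, beside 14.5, 51.9 and 128 CPM in liver, so libraries of 1 group differed more than the groups did (edgeR adjusted p = 0.865). Shared-D was at 203, 39.0 and 60.3 CPM in BLK.CL4, against 0, 5.49 and 54.1 in liver (edgeR adjusted p = 0.663). Below these in level, gatccggaagaAATAAAggc was at 34.4, 10.2 and 37.0 CPM in BLK.CL4, against 2.32, 12.5 and 20.9 in liver (edgeR adjusted p = 0.898). A member ending in the hexamer, gatccaatgcagtaAATAAA, was at 9.52, 59.0 and 38.9 CPM in BLK.CL4, against 0, 6.49 and 77.8 in liver (edgeR adjusted p = 0.746). These members lay within the spread of their libraries in both groups. The member gatcccAATAAAcccatgaa was at 60.8, 0 and 56.2 CPM in BLK.CL4, against 4.06, 0.998 and 16.4 in liver (edgeR adjusted p = 0.696). At start 9, gatcagtgAATAAAaccatc was at 9.52, 39.5 and 16.9 CPM in BLK.CL4, against 0, 0.998 and 0 in liver, apart but not called (edgeR adjusted p = 0.138).

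The 2 remaining members named here were spread over all 6 libraries at low level. The member gatccagacaaAATAAAgat was at 3.70, 5.85 and 28.3 CPM in BLK.CL4, against 0.580, 2.49 and 11.9 in liver (edgeR adjusted p = 0.998). The member gatcctttcctccgAATAAA was at 9.52, 0.487 and 7.31 CPM in BLK.CL4, against 1.16, 1.50 and 59.4 in liver, too low in all but 1 library to be tested. In both, 1 library of a group stood well above the others of that group.

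Some members were near copies of each other. Linking signatures that differ by 1 base gave 12 families with 27 members, the largest with 4, and 11 of the 15 members beside the most abundant of their family differ from it at base 20, the last base read. In 5 of the 12 families the members lay mostly in different run types, so that the run types counted different spellings. BLK-B and shared-A were the most abundant of these, each shown here with its near copy.
BLK-B: gatcccagcaAATAAAccag
BLK-B copy: gatcccagcaAATAAAccaa
shared-A: gatcctcatcAATAAAtgga
shared-A copy: gatcctcatcAATAAAtgaa
BLK-B took 385 counts from T runs and 73 from TH runs, while its copy took 0 and 260. Shared-A took 1629 counts from T runs and 0 from TH runs, while its copy took 7 and 252. The copy of BLK-B was also higher in BLK.CL4, so those 2 calls may count 1 transcript, which was not tested. In other families the spellings lay mostly in the same run type. Liver-C, with 1481 counts, had copies ending in g and c with 164 and 102 counts, all in TH runs. Of all members, 9 differ by 1 base from a signature with at least 10 times their count, and for 5 of these the more abundant signature is itself a member. Among these 9 are the liver calls gatctggacccaAATAAAaa (122 counts) and gatcaccaagataAATAAAt (266 counts).

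The letters around the hexamer were not even. The extended form AAATAAA was in 60 members (42.0%). Of the 121 members with a base after the hexamer, 33.1% had T there, 24.8% A, 22.3% G and 19.8% C. After the other 5 hexamers of the same letters A was the most frequent, at 36.2% of 431, and T the least, at 19.5%. The sets overlap, because AAATAA followed by A is the extended form that 60 members hold. Members are thus among the signatures with A there, and the contrast in A follows in part from the choice of hexamers. Outside GATC the median GC content of members was 31.25%, against 50% for other signatures, but the part of a member outside the hexamer had a median of 50%. A run of 6 or more A was in 2 members (1.40%), beside 0.689% of the other signatures, and the pentamer ATTTA in 1 (0.699%), beside 0.630%. A CG dinucleotide was in 24 members (16.8%), beside 29.8% of the other signatures. The hexamer has no C or G and so leaves fewer places for a CG in a member. The shares were not corrected for this.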

How the data were processed

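The authors deposited raw bead counts, 1 whole number per signature and run, per the file headers. The base caller, and the rule by which some signatures were left out, are not given in the sources used here. The files listed 93.9% to 95.2% of the beads stated per library. Where a library's file does not list a signature, its count was set to 0. The 4 runs of a library were added up.

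The members, the lists of hexamers and the tests were chosen with earlier results of these data known. The whole table, kept to signatures that reached 10 CPM in 2 or more of the 6 libraries, was fitted by group with edgeR 4.0.16 (glmQLFit, then the two-sided glmQLFTest, with TMM factors) under R 4.3.3. The test was checked on simulated data, where 200 of 8021 signatures were changed 256-fold. It recovered 97.5% of these and made 4 false calls. The simulation had the same dispersion for every signature and no run types, so it does not show how the test does on members counted in 1 run type. TMM factors were 1.72, 1.61 and 1.70 in BLK.CL4 and 0.604, 0.475 and 0.743 in liver. The SE of a log2 fold change is its size over the root of the F statistic. Fold bounds were taken against the mean CPM of 3 counts per library (1.47 in BLK.CL4 and 1.49 in liver), and cover counting error only. Values per library were compared with exact two-sided permutation tests of the difference of means in Python 3.11.15 with scipy 1.17.1. No p was computed for hexamer frequencies or for the division by run type.

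Members are named by rule. In each direction they are the 5 called members with the largest fitted change whose groups do not overlap. In each group they are the 5 with the highest mean CPM. Added are the 5 with the highest minimum over the 6 libraries and, at each start, the most abundant member. Near copies and exceptions outside the rule were chosen after their values were seen. Alternatives were another minimum total, T or TH runs alone, other filters and scalings, DESeq2 1.42.0, and leaving out each library, the most abundant member or possible miscalls (signatures 1 base from one with at least 10 times their count). Setting aside members whose TAAA fills a word, and leaving out libraries for the hexamer position, were chosen after seeing the data.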

Additional observations from a re-analysis of the deposited data

How the results depend on the processing

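The liver minus BLK.CL4 difference in the share of counts, which was small and uncalled, changed sign at a minimum total of 100 (0.0128 percentage points) and with TH runs alone (0.0502), and ran from -0.0313 to 0.0179 when each library was left out. With a minimum total of 100, AATAAA made up 25.8% of the 6 hexamers. The number of members higher in liver was 3 of 32 tested with T runs alone (9.38%, beside 9.48% of all tested signatures). With TH runs alone it was 4 of 31 (12.9% beside 10.7%). It was 3 of 11 with at least 25 CPM in 3 libraries (27.3% beside 20.0%) and 14 of 143 without the filter (9.79% beside 5.44%). When each library was left out, it ran from 4 (without BLK.CL4 library 1, 12.5% beside 11.6%) to 7 (without liver library 2, 17.1% beside 11.7%). The number higher in BLK.CL4 was 15 with DESeq2 (34.1% beside 22.7% of all tested signatures) and 16 with library totals (36.4% beside 25.05%). It was 5 with T runs (15.6% beside 8.12%) and 2 with TH runs (6.45% beside 6.63%). With at least 25 CPM it was 1 (9.09% beside 18.1%), and without the filter 4 (2.80% beside 2.58%). When each library was left out, it ran from 4 (without liver library 3, 10.8% beside 11.2%) to 10 (without BLK.CL4 library 3, 30.3% beside 15.9%). DESeq2 kept all 17 calls of the main test, and 6 were kept in every fit that left out a library. Without possible miscalls 15 of the 17 were kept. In that fit 7 of 42 tested members were higher in liver (16.7% beside 13.8%) and 9 in BLK.CL4 (21.4% beside 15.8%). The difference in hexamer position kept its direction under all alternatives run.

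Of 169 refitted values of the named members, 143 kept their direction and side of the threshold. Those that changed sign were all of uncalled members. For gatctgacttcAATAAAtat the log2 difference was -1.02 with library totals, -0.32 with T runs, and -0.29 to 1.79 when each library was left out. For gatccggaagaAATAAAggc it was -1.19 with library totals, and -0.16 to 0.72 when each library was left out. For gatccagacaaAATAAAgat it was 0.13 with TH runs, and -0.46 to 0.51 without BLK.CL4 library 1 or 2 or liver library 1 or 2 (too low to be tested without library 3 of either group). For gatccaatgcagtaAATAAA it was -0.35 with library totals, and -1.66 to 1.50 when each library was left out. For gatccaaaaagctAATAAAa it ran from -1.57 to 0.055 when each library was left out. The cause was not tested. No paired analysis was possible because the labels give no replicate numbers. Counts are few for most members (97 had totals under 100), which limits what can be told from a count of 0.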

Other observations

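Among the 8519 signatures with at least 100 counts, TAAA was the word most often missing that is not a palindrome. Over all words, palindromes included, it ranked 3 in T runs and 9 in TH runs. Leaving out the palindromes, 240 words of 4 bases were compared at the word positions of each run type, with signatures missing from that run type counted for each. In T runs TAAA then ranked first, with 84.2% of 57 signatures missing, beside 17.3% over all of these signatures and 71.4% for the next word, TAGA. In TH runs it again ranked first, with 70.1% of 67 missing, beside 13.4% over all and 60.7% for the next word, TTTA. The other words within AATAAA were missing far less often than TAAA. AATA was missing in 16.7% of 60 signatures in each run type. ATAA was missing in 10.8% of 65 signatures in T runs, below the share over all, and in 22.2% of 54 in TH runs, above it. The word was singled out after its values were seen, and the cause was not tested.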
